A study of Mus musculus with 20 samples.

Results

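The promoters of the taste, trace amine and formyl peptide receptor genes were taken from a table of 22480 mouse promoters as every row whose gene symbol begins with Tas1r, Tas2r, Taar or Fpr. The rule gave 58 promoters, made up of 3 Tas1r, 34 Tas2r, 15 Taar and 6 Fpr genes, and used no measured value. Each promoter was probed as a 2200-base window that runs from 2000 bases upstream of the gene start to 200 bases downstream. The measurement was MBD-seq of sperm DNA, in which fragments that carry methylated CG sites are captured with a methyl-CpG binding domain and sequenced, so that a higher read number in a window stands for more captured, methylated DNA. A read number cannot tell more methylated molecules apart from more methylated sites per molecule.

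Sperm came from the epididymis and vas deferens of 20 male mice aged 8 weeks, with 5 in each of 4 groups. C57BL/6J DEHP and FVB/N DEHP males were born to mothers of these wild-type strains that were given di(2-ethylhexyl) phthalate (DEHP), a plasticizer, orally in corn oil at 300 mg/kg/day from gestation day 9 to 19. C57BL/6J control and FVB/N control males were born to mothers that were given the corn oil alone over the same days. The exposure was therefore that of the pregnant mother and of the fetus. How many litters the males of a group came from was not given in the sources used here. DEHP and control DNA were sequenced as separate batches that each held both strains, so the treatment and the batch cannot be told apart in any DEHP comparison below.

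Tas1r receptors work in pairs in taste cells, where Tas1r1 with Tas1r3 detects amino acids and Tas1r2 with Tas1r3 detects sugars. Tas2r receptors detect bitter compounds, and several taste receptors and their G protein have also been found in testis and sperm. Most Taar receptors are made by olfactory sensory neurons and detect volatile amines, whereas Taar1 is found mainly outside the nose. Fpr1 and Fpr2 guide white blood cells towards formylated bacterial peptides, and Fpr3 and the Fpr-rs genes are best known from vomeronasal neurons.

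The genes lie in clusters of the mm10 build. The 15 Taar promoters fill chr10:23918406-24111534. Of the 34 Tas2r promoters, 24 lie at chr6:131630631-133057793 and 8 lie nearer the centromere at chr6:23969861-42434734, while Tas2r119 is on chromosome 15 and Tas2r134 on chromosome 2. The Fpr promoters lie on chromosome 17 and the Tas1r promoters on chromosome 4. All 58 windows overlap an exon of their own gene in the GENCODE annotation. For 57 members the annotated gene starts within 95 bases of the start used for the window, whereas for Fpr3 the annotated gene starts 82606 bases further upstream, so its window is not at the start of that annotated gene. The window of Fpr2 also overlaps an exon annotated to Fpr3.

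These promoters are poor in CG sites, which are the sites the capture reads. The members held a median of 11 CG sites, from 1 in Tas2r121 to 125 in Tas1r1, against a median of 45 over all promoters. For 56 of the 58 members the deposited number of CG sites was also counted in the genome sequence. The 200 bases upstream of the gene start with the most CG sites are printed here for the members with the highest DEHP over control ratio, averaged over both strains, in the Fpr, Tas2r and Taar families, and with the lowest in the Tas2r and Taar families, to show how few sites a value rests on. They were read from the RefSeq GRCm38.p6 assembly in the direction of the gene, with CG sites in capitals.
Fpr3 (highest Fpr, chr17:17968816-17969015, plus strand): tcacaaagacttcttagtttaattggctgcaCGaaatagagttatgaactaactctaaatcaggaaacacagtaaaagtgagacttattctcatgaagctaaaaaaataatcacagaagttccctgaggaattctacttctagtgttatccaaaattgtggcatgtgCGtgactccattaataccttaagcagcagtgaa
Tas2r123 (highest Tas2r, chr6:132845345-132845544, plus strand): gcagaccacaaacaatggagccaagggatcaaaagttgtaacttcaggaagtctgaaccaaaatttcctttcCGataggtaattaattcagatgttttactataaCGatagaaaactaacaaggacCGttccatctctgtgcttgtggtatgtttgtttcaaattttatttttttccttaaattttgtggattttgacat
Tas2r114 (lowest Tas2r, chr6:131690624-131690823, minus strand): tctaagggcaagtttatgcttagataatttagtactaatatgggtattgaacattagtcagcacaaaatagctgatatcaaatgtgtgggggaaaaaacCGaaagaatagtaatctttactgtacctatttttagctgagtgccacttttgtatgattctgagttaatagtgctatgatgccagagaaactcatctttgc
Taar8c (highest Taar, chr10:24102728-24102927, minus strand): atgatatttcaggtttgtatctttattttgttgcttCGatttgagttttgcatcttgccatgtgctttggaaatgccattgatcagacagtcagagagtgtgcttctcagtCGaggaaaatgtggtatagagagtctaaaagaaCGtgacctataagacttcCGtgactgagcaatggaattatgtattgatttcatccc
Taar7e (lowest Taar, chr10:24036738-24036937, plus strand): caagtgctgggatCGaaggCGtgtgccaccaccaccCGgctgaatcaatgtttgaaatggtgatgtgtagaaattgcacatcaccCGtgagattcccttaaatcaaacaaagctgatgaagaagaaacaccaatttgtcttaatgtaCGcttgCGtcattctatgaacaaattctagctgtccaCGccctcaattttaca
The stretch of Fpr3 held 2 of the 6 CG sites of its window, and that of Tas2r114 held 1 of 3. The stretches of Taar8c and Taar7e held 4 and 7 sites out of 14 in each window.

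**Figure D1:**
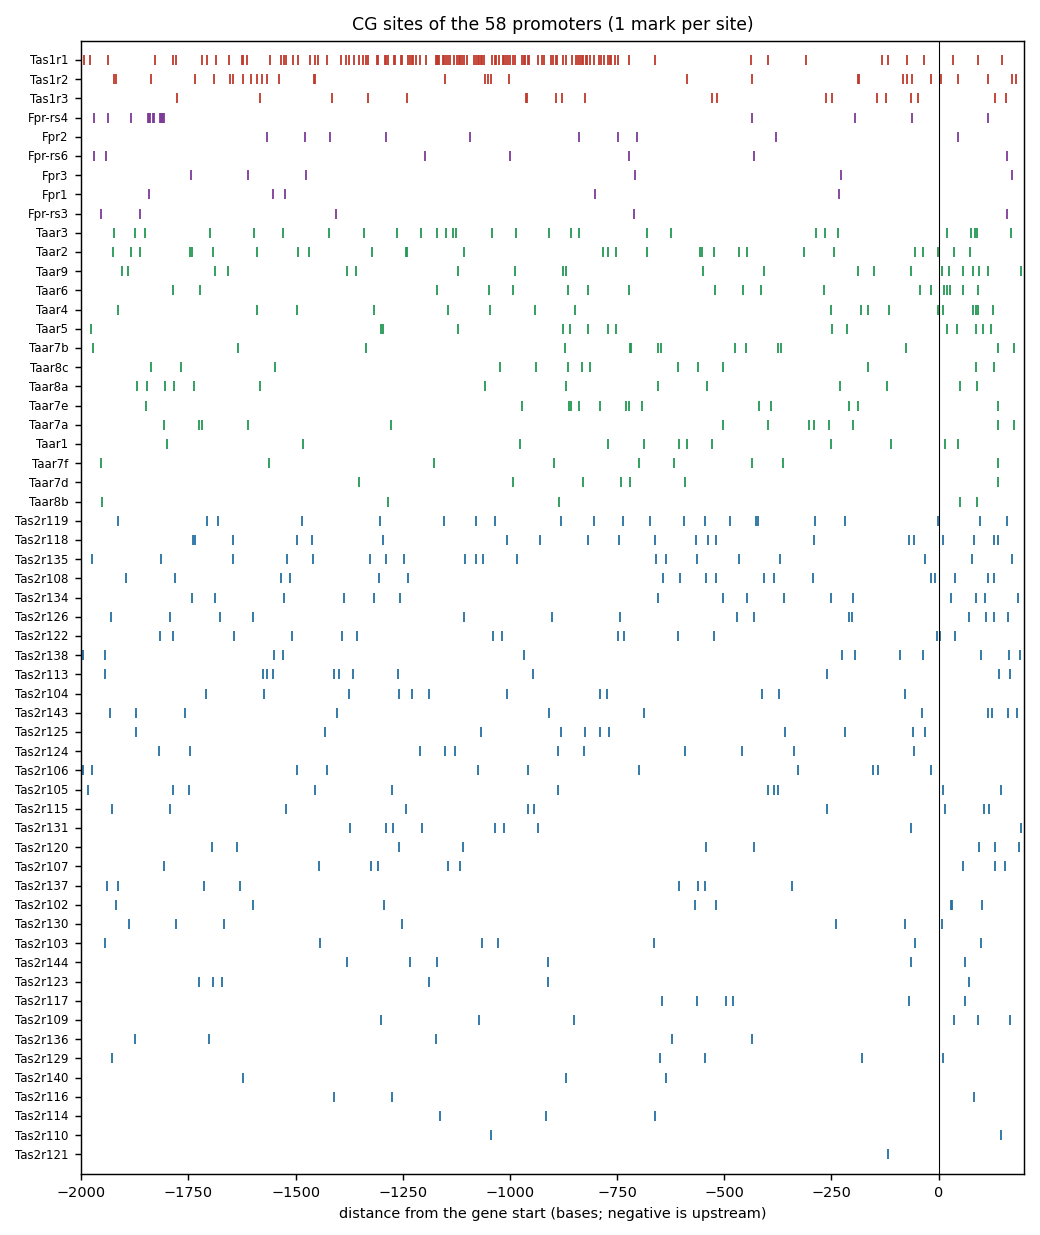
CG sites of the 58 promoters by distance from the gene start in bases, with 1 row per gene and 1 mark per site, coloured by family (red Tas1r, purple Fpr, green Taar, blue Tas2r). Tas1r1 carries 125 sites and Tas2r121 1 site.

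The map of CG sites shows that most members spread their few sites over the whole window. The 5 measured Taar7 genes (Taar7a, Taar7b, Taar7d, Taar7e and Taar7f) share a CG site 138 bases downstream of the gene start. Reads that map to several places were discarded by the authors. Taar8a and Taar8c were the 2 members with under 80% of 51-base sequences unique in the genome, at 63.9% and 69.6%. The windows of Fpr1 and Fpr2 overlap by 116 bases, those of Tas2r104 and Tas2r105 by 481 bases, and that of Tas1r1 overlaps the promoter window of Nol9 by 1236 bases, so these promoters share reads.

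All values below are the authors' mean and SD of normalized reads over the 5 libraries of a group, written as mean ± SD. Since the table gives groups and not libraries, no permutation test or count model could be run. No approximate test from 5 values per group was made, and depth per library is unknown. The paper gives averages only, with more and slightly longer read pairs in DEHP than in control libraries. The part of this in the DEHP ratios was not tested. A ratio is the log2 of (mean + 1) in the first group less the same in the second, so 1 stands for a doubling of mean + 1. The measure understates changes of low promoters. Differences were set against the spread in 2 ways. Groups were called separated when the ranges in which 5 libraries with such a mean and SD can lie, mean ± 1.79 SD widened for rounding, did not overlap. A looser measure, chosen after the values were seen, was a difference of means larger than the sum of both SDs.

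The group means were not on 1 scale. Over all promoters they summed to 226268 in C57BL/6J control, 153283 in C57BL/6J DEHP, 141092 in FVB/N control and 150346 in FVB/N DEHP. The median ratio of all promoters for DEHP over control was not 0 but -0.10 in C57BL/6J mice and 0.35 in FVB/N. The ratios of members are given beside these. As a check of the cell type, 11 promoters with a maternal germline imprint, which carry little methylation in sperm, held 0.0769 to 0.104 reads per CG site in the 4 groups. All promoters together held 0.125 to 0.200 reads per CG site and the members 0.264 to 0.468. The median promoter held 0.0844 to 0.138, and in FVB/N control its 0.0844 was close to the 0.0781 of the imprinted promoters, of which 1 reached 26.5 reads in C57BL/6J control.

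The levels of the members ran with their number of CG sites in all groups. Spearman's rho between CG sites and level over the 58 members was 0.84 in C57BL/6J control, 0.82 in C57BL/6J DEHP, 0.83 in FVB/N control and 0.82 in FVB/N DEHP. Over all promoters it lay between -0.25 and -0.05, but it was also positive over Olfr promoters, from 0.53 to 0.68, and over Vmn promoters, from 0.43 to 0.57. These are descriptions over promoters that share libraries. The median level of members was 3.6 normalized reads in C57BL/6J control, 5.45 in C57BL/6J DEHP, 2.15 in FVB/N control and 4.8 in FVB/N DEHP. Tas1r2 was highest in both control groups, with 44.1 ± 18.3 in C57BL/6J mice and 22.7 ± 8.7 in FVB/N, and Taar2 was highest in both DEHP groups, with 22.1 ± 7.8 in C57BL/6J mice and 18.5 ± 2.4 in FVB/N. In each group the mean of the next member lay within 2 SDs of the highest one, so their order does not exceed the spread. The lowest members were Tas2r110, listed at 0 in C57BL/6J control, Tas2r116 at 0.6 ± 0.9 in C57BL/6J DEHP, Tas2r121 and Tas2r123 at 0.2 in FVB/N control, and Tas2r114 at 0.2 ± 0.4 in FVB/N DEHP.

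**Figure D2:**
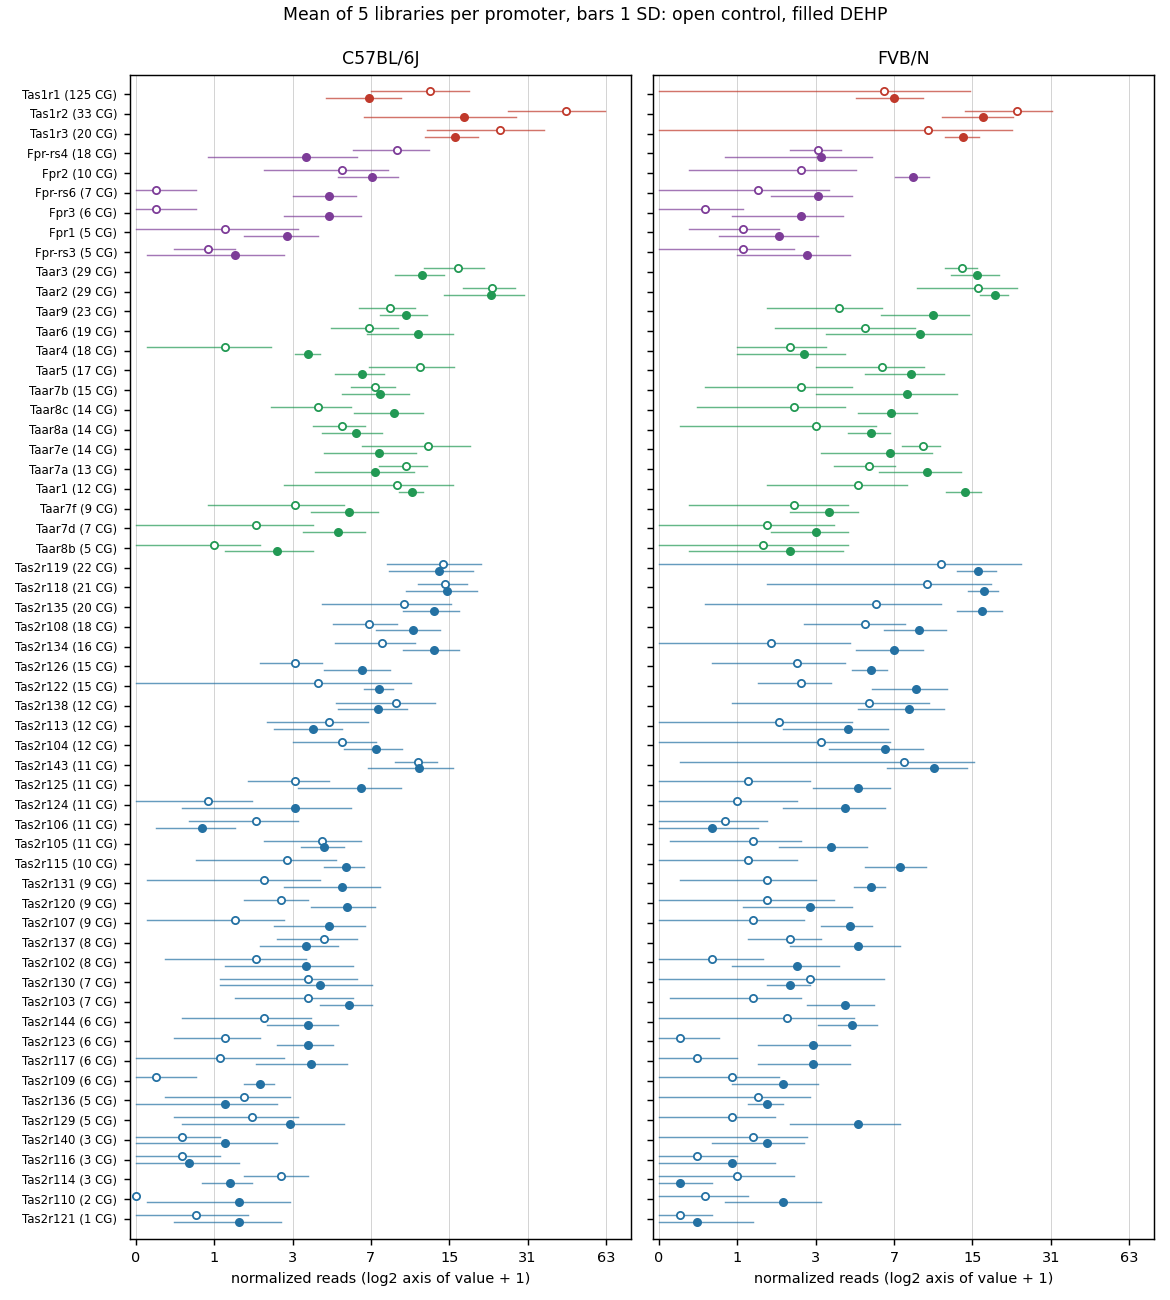
Mean normalized reads of the 58 promoters in C57BL/6J (left) and FVB/N (right), 1 row per gene with its number of CG sites, on a log2 axis of value + 1. Open points are control and filled points DEHP, bars are 1 SD of 5 libraries cut at 0, and colours are families (red Tas1r, purple Fpr, green Taar, blue Tas2r). Most filled points lie to the right of the open ones, whereas the Tas1r genes in C57BL/6J lie to the left.

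The first question was how maternal DEHP exposure related to methylation of these promoters in C57BL/6J. Levels were higher in DEHP than in control for 42 of 58 members (72.4%, against 43.5% of all promoters) and lower for 16. The median ratio was 0.46 against -0.10 over all promoters. The ratio exceeded 1 in 10 members (17.2%, against 5.09% of all promoters) and was under -1 in 2 members, Tas1r2 and Fpr-rs4 (3.45%, against 10.7%). The groups were separated in 1 member, Fpr-rs6 (1.72%, against 0.249% of all promoters for higher in DEHP), and in none towards lower (against 1.42%). The difference exceeded the sum of both SDs towards higher in 9 members (15.5%, against 3.57%), namely Taar4, Taar8c, Fpr3, Fpr-rs6, Tas2r109, Tas2r110, Tas2r120, Tas2r123 and Tas2r126. It did so towards lower in none (against 11.7%). With the means scaled to equal sums over all promoters, 50 of 58 members were higher in DEHP, and with equal medians 38 were. The median ratio of all promoters was then 0.33 and -0.16.

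In FVB/N the level was higher in DEHP for 53 of 58 members (91.4%, against 69.1% of all promoters) and lower for 5. The median ratio was 0.73 against 0.35 over all promoters. The ratio exceeded 1 in 19 members (32.8%, against 14.4%) and was under -1 in none (against 2.68%). No member was separated in either direction (against 0.774% of all promoters for higher and 0.859% for lower). The difference exceeded the sum of both SDs towards higher in 15 members (25.9%, against 8.58%) and towards lower in none (against 3.65%). These 15 were Taar1, Taar8c, Fpr2, Tas2r103, Tas2r107, Tas2r115, Tas2r117, Tas2r122, Tas2r123, Tas2r125, Tas2r126, Tas2r129, Tas2r131, Tas2r134 and Tas2r135. Taar8c, Tas2r123 and Tas2r126 were past this mark in both strains. With equal medians over all promoters 39 of 58 members were higher in DEHP, and with equal sums 52 were. The median ratio of all promoters was then -0.18 and 0.29.

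Promoters with as many CG sites as the members, within 10% or 1 site, gave shares mostly nearer to those of the members. In such promoters the ratio exceeded 1 in 13.6% in C57BL/6J, where the members had 17.2%, and in 27.2% in FVB/N, where the members had 32.8%. The difference exceeded the sum of both SDs towards higher in 8.86% of them in C57BL/6J, where the members had 15.5%, and in 16.2% in FVB/N, where the members had 25.9%. The ratio was under -1 in 2.67% of them in C57BL/6J (members 3.45%) and in 0.383% in FVB/N (members 0). The difference passed the sum of both SDs towards lower in 3.48% and 0.576% (members 0 in both). Groups were separated towards higher in 0.878% in C57BL/6J (members 1.72%) and 1.65% in FVB/N (members 0). Set against the median of promoters with as many CG sites, the members' median ratio was 0.06 in C57BL/6J, with 32 members above and 26 below, and 0.03 in FVB/N, with 34 above and 24 below. The offset of the members from all promoters was thus nearly that of other promoters poor in CG sites, which include many vomeronasal and olfactory receptor promoters. When these receptor promoters were left out of the reference, the match was less close. The members' median ratio then lay above the reference by 0.15 for C57BL/6J mice and by 0.07 for FVB/N. The vomeronasal receptor promoters, with 238 symbols that hold Vmn, had median ratios of 0.74 in C57BL/6J mice and 0.79 in FVB/N. The 1074 promoters with Olfr in their symbol, for olfactory receptors, had 0.62 and 0.82.

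**Figure D3:**
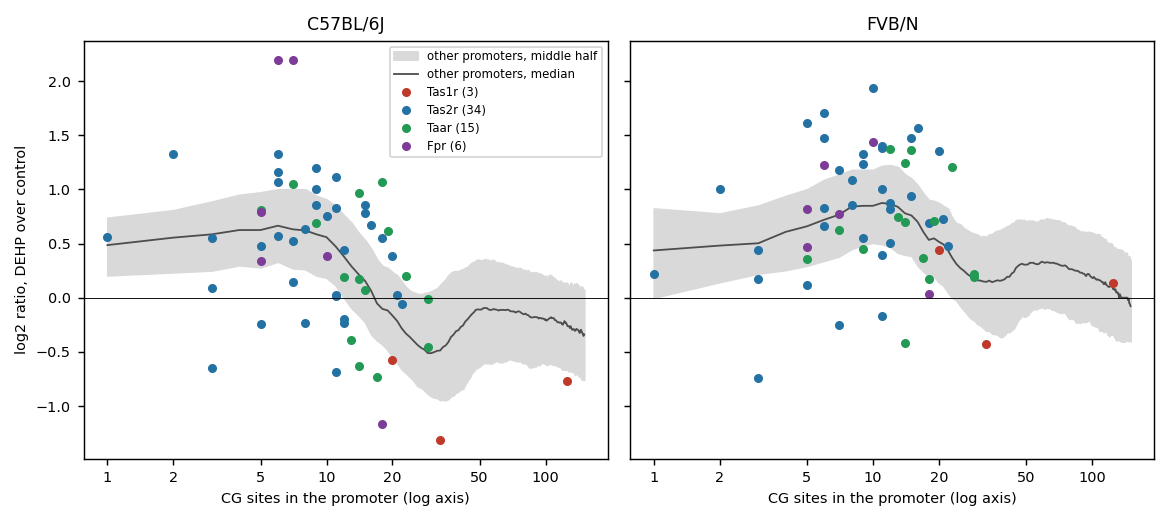
Log2 ratio of DEHP over control against the number of CG sites (log axis) in C57BL/6J (left) and FVB/N (right). Points are the 58 members by family, the line is the median and the band the middle 50% of other promoters with as many CG sites. The members scatter around the line. That line is above 0 at few CG sites in both strains and lies below 0 at 20 sites in C57BL/6J.

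Over other promoters the trend line differed between the strains, and the members spread around it. Among members with 6 to 10 CG sites the median ratio was 0.85 in C57BL/6J mice and 1.09 in FVB/N (n = 17), where other promoters of that range had 0.61 and 0.81. Among members with 11 to 15 CG sites it was 0.12 and 0.90 (n = 16), where others had 0.31 and 0.82. In the 8 members with 16 to 20 sites it was 0.47 and 0.57, where others had -0.07 and 0.59. In the 10 members with 1 to 5 sites it was 0.52 and 0.40, where others had 0.61 and 0.60. In the 6 members with 21 to 33 sites it was -0.04 and 0.34, where others had -0.43 and 0.25. Spearman's rho of CG sites with the ratio over the members was -0.42 in C57BL/6J mice and -0.08 in FVB/N, as a description.

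The sweet and amino acid receptor genes all lay lower in C57BL/6J DEHP, and made up 3 of the 16 members that did. Tas1r2 (chr4:139651538-139653737), the partner that makes the sweet receptor, had 44.1 ± 18.3 normalized reads in C57BL/6J control and 17.2 ± 10.7 in DEHP, a ratio of -1.31. In FVB/N it had 22.7 ± 8.7 and 16.6 ± 5.4, a ratio of -0.43. The ranges of mean ± SD overlap in both strains. Less the median of promoters with as many CG sites, its ratios were -0.82 and -0.58. Tas1r3 (chr4:155863154-155865353), the partner shared by both receptors, had 24.1 ± 12 and 15.8 ± 3.9 in C57BL/6J mice and 9.8 ± 11.9 and 13.7 ± 2.2 in FVB/N, with ratios of -0.58 and 0.44. Tas1r1 (chr4:152038291-152040490), the amino acid receptor partner, had 12.5 ± 5.5 and 6.9 ± 2.5 in C57BL/6J mice and 6.3 ± 8.4 and 7.0 ± 2.3 in FVB/N, with ratios of -0.77 and 0.13. The family was lower in DEHP in 3 of 3 genes in C57BL/6J mice and in 1 of 3 in FVB/N, with none separated. Of all 22480 promoters, 12316 were lower in C57BL/6J mice and 6453 in FVB/N. With the means scaled to equal medians over all promoters the family was lower in 3 of 3 genes in FVB/N too, so its FVB/N direction turns with the scale, while that in C57BL/6J did not turn under either scale tried. With equal sums the C57BL/6J ratios shrank to -0.77 for Tas1r2, -0.26 for Tas1r1 and -0.04 for Tas1r3.

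Among the formyl peptide receptors, Fpr-rs6 and Fpr3 had the highest ratios of all members in C57BL/6J. Fpr-rs6 (chr17:20182898-20185097, minus strand, 7 CG sites), a vomeronasal receptor gene, had 0.2 ± 0.5 normalized reads in C57BL/6J control and 4.5 ± 1.5 in DEHP, a ratio of 2.20. If the deposited SD is a sample SD, no control library can have passed 1.23 and no DEHP library can have been under 1.68, which leaves no overlap. The kind of SD is not stated, and read as a population SD the separation is lost, with 0 members separated. FVB/N means were 1.4 ± 2.1 and 3.1 ± 1.4, a ratio of 0.77, and the possible ranges overlap. Fpr3 (chr17:17968458-17970657, 6 CG sites) had 0.2 ± 0.5 and 4.5 ± 1.8 in C57BL/6J, also a ratio of 2.20, but its possible ranges overlap slightly, since the control range reaches up to 1.23 and the DEHP range down to 1.14. Fpr3 had 0.5 ± 0.6 and 2.5 ± 1.6 in FVB/N, a ratio of 1.22. Both genes lay above promoters with as many CG sites in C57BL/6J, by 1.56 for Fpr-rs6 and 1.53 for Fpr3. In FVB/N these excesses were 0.01 and 0.50.

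Fpr-rs4, a neighbour of Fpr3 in the same cluster, lay the other way in C57BL/6J. It had 9.1 ± 3.3 in control and 3.5 ± 2.6 in DEHP, a ratio of -1.17, with overlapping ranges. In FVB/N it had 3.1 ± 0.9 and 3.2 ± 2.4, a ratio of 0.03 that turned negative under either scaling. Fpr2, which white blood cells use, had 5.2 ± 3.1 and 7.1 ± 2.1 in C57BL/6J mice and 2.5 ± 2.2 and 8.5 ± 1.4 in FVB/N, with ratios of 0.39 and 1.44. The FVB/N difference of Fpr2 was 1.67 times the sum of both SDs. Fpr1 had 1.2 ± 2.0 and 2.8 ± 1.2 in C57BL/6J mice and 1.1 ± 0.8 and 1.9 ± 1.2 in FVB/N, and Fpr-rs3 had 0.9 ± 0.5 and 1.4 ± 1.3, and 1.1 ± 1.2 and 2.7 ± 1.7. In these 2 genes, with 5 CG sites each, the groups overlapped in both strains. Over the family, 5 of 6 genes were higher in DEHP in C57BL/6J mice and 6 of 6 in FVB/N. Of all promoters, 43.5% and 69.1% were higher.

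Bitter receptor promoters were mostly higher in DEHP. In C57BL/6J mice 27 of 34 were higher (79.4%, against 43.5% of all promoters), and in FVB/N 31 of 34 (91.2%, against 69.1%). The median ratios were 0.55 and 0.86, and relative to promoters with as many CG sites they were 0.13 and 0.14. The 24 genes of the distal cluster on chromosome 6 had medians of 0.60 and 1.0, and the 8 proximal genes had 0.21 and 0.78. Relative to promoters with as many CG sites the clusters lay close together, with 0.06 for distal and 0.07 for proximal genes in C57BL/6J, while FVB/N had 0.19 for distal and 0.13 for proximal genes. The distal cluster also held fewer reads, with a median level of 1.9 in C57BL/6J control against 7.95 in the proximal genes. The median reference level from promoters with as many CG sites was 1.55 for distal and 5.45 for proximal genes.

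In C57BL/6J the highest bitter receptor ratios were those of Tas2r110 and Tas2r109, followed by Tas2r107 and Tas2r117. Tas2r110, with 2 CG sites, was listed at 0.0 ± 0.0 in control and 1.5 ± 1.4 in DEHP, so no fold is given. Tas2r109 had 0.2 ± 0.5 and 2.0 ± 0.4, a ratio of 1.32, and its difference was 2.00 times the sum of both SDs although the possible ranges overlap. Tas2r107 had 1.4 ± 1.3 and 4.5 ± 2.1, a ratio of 1.20, and Tas2r117 had 1.1 ± 1.6 and 3.7 ± 1.8, a ratio of 1.16. All 4 lie in the distal cluster and hold 2 to 9 CG sites. These 4 promoters had FVB/N ratios of 1.0 for Tas2r110, 0.66 for Tas2r109, 1.23 for Tas2r107 and 1.48 for Tas2r117.

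The highest bitter receptor ratio in FVB/N was that of Tas2r115 (chr6:132737787-132739986, 10 CG sites). Its mean was 1.2 ± 1.2 in control and 7.4 ± 2.2 in DEHP, a ratio of 1.93, and the difference was 1.82 times the sum of both SDs. In C57BL/6J it had 2.8 ± 2.1 and 5.4 ± 1.1, a ratio of 0.75. The next were Tas2r123 with 0.2 ± 0.5 and 2.9 ± 1.5, a ratio of 1.70, Tas2r129 with 0.9 ± 0.9 and 4.8 ± 2.6, a ratio of 1.61, and Tas2r134 with 1.7 ± 2.7 and 7.0 ± 2.3, a ratio of 1.57. Tas2r123 also had 1.2 ± 0.8 and 3.6 ± 1.1 in C57BL/6J, a ratio of 1.06, so it was past 1 in both strains. Tas2r129 and Tas2r134 had C57BL/6J ratios of 0.48 and 0.67. Tas2r131 lay at the mark in C57BL/6J with a ratio of 1.0, from 2.1 ± 2.0 to 5.2 ± 2.5, and had 1.32 in FVB/N, from 1.6 ± 1.4 to 5.5 ± 0.9.

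A few bitter receptor promoters lay lower in DEHP. Tas2r114, with 3 CG sites, had 2.6 ± 1.0 and 1.3 ± 0.5 in C57BL/6J mice and 1.0 ± 1.3 and 0.2 ± 0.4 in FVB/N, with ratios of -0.65 and -0.74. Tas2r106 had 1.9 ± 1.3 and 0.8 ± 0.6 in C57BL/6J mice and 0.8 ± 0.8 and 0.6 ± 0.8 in FVB/N, with ratios of -0.69 and -0.17. These were the bitter receptor genes lower in both strains, and their possible ranges overlapped in each. Tas2r130 had 3.6 ± 2.5 and 4.1 ± 3.0 in C57BL/6J mice and 2.8 ± 3.5 and 2.2 ± 0.6 in FVB/N, with ratios of 0.15 and -0.25. Tas2r136, with 5 CG sites, had ratios of -0.24 and 0.12, and Tas2r137 had -0.24 and 0.86. The C57BL/6J ratios of Tas2r136, Tas2r137 and Tas2r138 turned positive with equal sums. Tas2r138, the mouse counterpart of the human receptor for the bitter compound phenylthiocarbamide, had 9.0 ± 4.1 and 7.5 ± 2.5 in C57BL/6J mice and 5.4 ± 4.5 and 8.1 ± 3.3 in FVB/N.

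Trace amine receptor promoters were higher in DEHP for 10 of 15 genes in C57BL/6J mice (66.7%, against 43.5% of all promoters). In FVB/N 14 of 15 were higher (93.3%, against 69.1%). The median ratios were 0.19 and 0.62, and relative to promoters with as many CG sites 0.10 and -0.08. In C57BL/6J the highest were Taar4, a receptor for phenylethylamine, with 1.2 ± 1.1 and 3.6 ± 0.5, a ratio of 1.06, and Taar7d with 1.9 ± 1.9 and 5.0 ± 1.6, a ratio of 1.05. Taar8c with 4.0 ± 1.7 and 8.8 ± 2.9 lay just under the mark at 0.97. Taar8b, with 5 CG sites, followed at 0.81. Taar4 held 18 CG sites and its level in C57BL/6J control was far under that of Taar5 next to it, which had 11.3 ± 4.4 with 17 sites.

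In FVB/N the highest of this family was Taar1, the receptor found mainly outside the nose. It had 4.8 ± 3.2 in control and 14 ± 2.3 in DEHP, a ratio of 1.37, and the difference was 1.67 times the sum of both SDs. In C57BL/6J it had 9.1 ± 6.4 and 10.5 ± 1.2, a ratio of 0.19. Taar7b had 2.5 ± 2.0 and 8.0 ± 5.0 in FVB/N, a ratio of 1.36, Taar8c had 2.3 ± 1.9 and 6.8 ± 2.0, a ratio of 1.24, and Taar9 had 3.9 ± 2.3 and 10.3 ± 4.2, a ratio of 1.21. Of these 4, Taar8c alone had a C57BL/6J ratio near 1, with 0.07 for Taar7b and 0.20 for Taar9.

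Taar7e was the trace amine receptor gene lower in both strains. It had 12.3 ± 5.9 and 7.6 ± 3.3 in C57BL/6J mice and 9.3 ± 1.7 and 6.7 ± 3.5 in FVB/N, with ratios of -0.63 and -0.42 and overlapping groups. Taar5, a receptor for trimethylamine, had 11.3 ± 4.4 and 6.4 ± 1.6 in C57BL/6J, a ratio of -0.73, and 6.2 ± 3.2 and 8.3 ± 3.1 in FVB/N, a ratio of 0.37. Taar3 had ratios of -0.46 and 0.19 and Taar7a -0.39 and 0.74, of which the C57BL/6J values turned positive with equal sums. The lowest FVB/N ratios after Taar7e were 0.17 for Taar4, 0.19 for Taar3 and 0.22 for Taar2, and all 3 turned negative with equal medians. Within the Taar7 group, whose members share sequence, the C57BL/6J ratios thus spread from -0.63 in Taar7e to 1.05 in Taar7d.

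**Figure D4:**
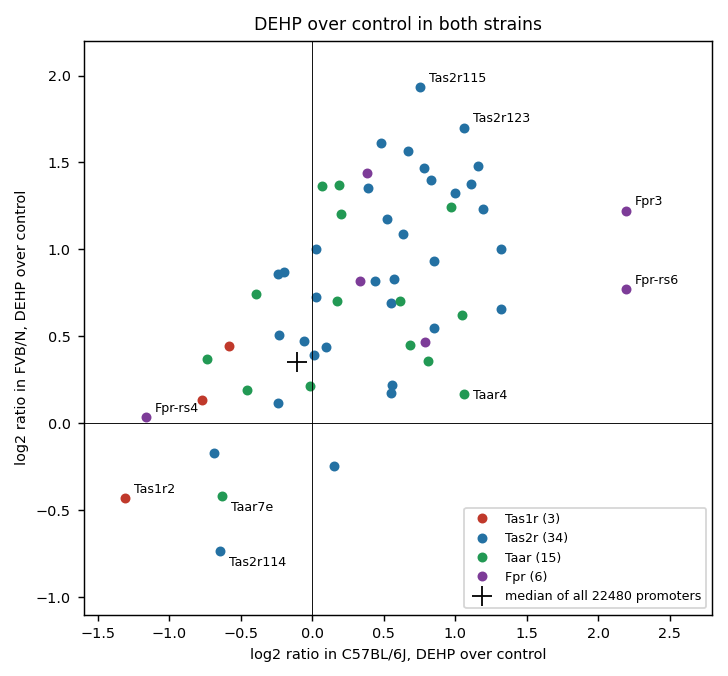
Log2 ratio of DEHP over control in C57BL/6J (x axis) against FVB/N (y axis) for the 58 members by family, with the median of all promoters as a cross. Most points, 41 of 58, lie in the upper right, and 4 lie in the lower left, among them Tas1r2, Taar7e and Tas2r114.

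Across both strains, 41 members were higher in DEHP (70.7%, against 37.3% of all promoters) and 4 were lower (6.90%, against 23.1%). A further 12 were lower in C57BL/6J mice and higher in FVB/N (20.7%, against 30.6%), and 1 (Tas2r130) was the reverse. The 4 lower ones were Tas1r2, Taar7e, Tas2r106 and Tas2r114, which were lower in both strains under either scaling too. The ratio exceeded 1 in both strains in 5 members (8.62%, against 2.07% of all promoters), which were Fpr3, Tas2r107, Tas2r117, Tas2r123 and Tas2r124. Of Vmn and Olfr promoters, 79.4% and 77.6% were higher in both strains, and 17.2% and 10.9% had ratios above 1 in both. Against promoters with as many CG sites, 23 members lay above in both strains (39.7%, against 33.3% of all promoters) and 15 below in both (25.9%, against 33.5%). Spearman's rho between the ratios of the strains was 0.54 over the 58 members and 0.53 over all promoters, and the strains share the 2 sequencing batches. The same rho was 0.58 over the 34 Tas2r and 0.16 over the 15 Taar promoters, and 0.24 over Olfr and 0.28 over Vmn promoters.

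The comparison of strains asked whether the promoters differed between C57BL/6J and FVB/N with and without DEHP. In controls the median ratio of C57BL/6J over FVB/N was 0.52 for members and 0.54 for all promoters. It exceeded 1 in 5 members (8.62%, against 16.4%), namely Tas2r134, Fpr-rs4, Taar7b, Tas1r3 and Tas2r105, and was under -1 in none (against 0.556%). These values moved with the scale, since the members' median became 0.01 with equal sums and -0.03 with equal medians, 1 member was above 1 under either, and 4 were under -1 with equal medians. No member was separated (against 1.06% of all promoters for higher and 0.0267% for lower in C57BL/6J). Tas2r134 had the widest control difference, with 7.8 ± 3.0 in C57BL/6J mice and 1.7 ± 2.7 in FVB/N, a ratio of 1.70, and its window holds 37 listed sequence variants between the strains, the most of any member. The part of these variants in the difference was not tested.

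In DEHP groups the strain ratio had a median of 0.10 for members and 0.04 for all promoters. No member was past 1 (against 2.69%) or under -1 (against 0.298%), and none was separated (against 0.307% for higher and 0.0311% for lower). The values ran from -0.62 in Fpr-rs3 to 0.94 in Tas2r114. Tas2r134 had 13.0 ± 3.4 in C57BL/6J DEHP and 7.0 ± 2.3 in FVB/N DEHP, a ratio of 0.81. Of the 58 members, 37 had no listed variant in the window (63.8%, against 53.9% of all promoters), and these include 27 of the 34 Tas2r genes.

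The spread between libraries was widest in FVB/N control. The median SD over mean was 0.92 over the 48 members with a mean of at least 1 read there, against 0.48 in C57BL/6J control, 0.36 in C57BL/6J DEHP and 0.39 in FVB/N DEHP. All promoters also had their highest value, 0.74, in FVB/N control. Tas2r119 had 11.1 ± 12.5, Tas1r3 9.8 ± 11.9 and Tas1r1 6.3 ± 8.4 in FVB/N control. With 5 values that cannot be negative, such an SD puts the highest library at 22.2 reads or more for Tas2r119, at 21.2 or more for Tas1r3 and at 15.1 or more for Tas1r1, if it is a sample SD. These values lie above the FVB/N DEHP means of 15.8 ± 2.9, 13.7 ± 2.2 and 7.0 ± 2.3. Whether they come from the same library cannot be read from group values, and the part of this spread in the FVB/N ratios was not tested.

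A further list held genes that carry signals of these receptors in taste, olfactory and vomeronasal cells, with ligands and arrestins of the formyl peptide receptors. Their promoters had lower median ratios than the members and held more CG sites. Of 31 listed genes 30 were in the table, with a median of 34 CG sites, against 11 in the members. Their median ratio for DEHP over control was -0.59 in C57BL/6J, with 8 higher and 21 lower, and 0.23 in FVB/N, with 16 higher and 13 lower. Of all promoters, 43.5% were higher in C57BL/6J and 69.1% in FVB/N. Relative to promoters with as many CG sites the medians were -0.26 and -0.02, where the members had 0.06 and 0.03. The separated ones were Arrb1, an arrestin that ends receptor signalling, with 19.2 ± 2.6 in C57BL/6J control and 6.8 ± 2.5 in DEHP, and Ano2, a chloride channel of olfactory neurons, with 37.1 ± 8.7 in C57BL/6J control and 9.7 ± 4.0 in FVB/N control. Of all promoters, 1.42% were separated towards lower in C57BL/6J DEHP, and 1.06% towards higher in C57BL/6J control than in FVB/N control.

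Expression values from an independent dataset of testis cells, which the authors added to the table, were present for 12 members among 17133 genes. Tas1r1 in spermatids lay at percentile 85.2, Tas1r3 at 67.8 and Tas1r2 at 64.2. Tas2r108 came next, and the 8 others of these 12 genes lay at percentile 21.7 or lower in spermatids. The 3 Tas1r genes, which were lower in C57BL/6J DEHP, were thus those with the highest listed expression, and no relation was tested.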

How the data were processed

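MBD-seq was done on sperm DNA of 5 mice in each of 4 groups. The authors captured methylated fragments with the MethylCap kit, mapped read pairs to mm10 with Bowtie 0.12.7, discarded pairs over 600 bp apart, multiply mapped or without a CG site, and normalized with edgeR. The deposited table holds, for each promoter and group, the mean signal in normalized reads and its SD, each to 1 decimal, with the number of CG sites, listed variants between the strains and expression scores from an independent dataset, as the authors deposited them. It also holds the authors' own fold changes, p-values and FDR, which were not used. No values of single libraries were used, so no permutation test, count model or leave-one-out value could be had. Approximate tests and intervals from 5 values per group were not made. The kind of SD was not stated, and it was taken as a sample SD.

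Ratios were computed in Python 3.11.15 with numpy 2.4.6 and pandas 2.3.3 as log2 of (mean + 1), with no filter on low values. Possible ranges of the 5 libraries were mean ± 1.79 SD, widened by 0.05 for rounding of both and cut at 0. The range and CG-matching steps were tested on simulated data. Promoters of as many CG sites were those within 10% or 1 site. Sequences, repeat marks and 51-base uniqueness were read from GRCm38.p6. The sequence for the lowest Fpr ratio is not reported here. Values were named for every Tas1r and Fpr gene, every separated member, the 4 highest and 4 lowest Tas2r and Taar ratios in each strain and the highest and lowest level in each group. The members, lists and the genes named were chosen with earlier results of these data known. Alternatives were other scales of the means, pseudocounts of 0.1 and 3, a filter on low means, a population SD, other CG matching, and leaving out members with poor uniqueness. Leaving out the 5 members with overlapping windows, the sum of both SDs as a mark and the split by repeats were added after the data were seen.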

Additional observations from a re-analysis of the deposited data

How the results depend on the processing

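The median DEHP over control ratio of the members stayed positive under every alternative computed, from 0.06 (less the median of promoters with as many CG sites) to 0.85 (means scaled to equal sums) in C57BL/6J and from 0.03 to 0.99 (pseudocount of 0.1) in FVB/N. Of 164 values computed under alternatives 138 kept within the spread or within 1.5 times the count and 26 moved. This mark was loose for medians, since 0.46 falling to 0.06 in C57BL/6J and 0.73 falling to 0.03 in FVB/N counted as kept. Counts of 0 that stayed 0 were also among those kept. The median of C57BL/6J over FVB/N in controls, 0.52, changed sign to -0.03 with equal medians and to -0.03 less the median of promoters with as many CG sites. The members' median less that of promoters with as many CG sites lay between 0.05 and 0.15 in C57BL/6J and between 0.01 and 0.07 in FVB/N. The upper end of each range came from a reference without Vmn and Olfr promoters. Counts depended more on the setting, and the cause was not tested. In C57BL/6J the 10 members above 1 became 24 with equal sums, 17 with a pseudocount of 0.1, 2 with a pseudocount of 3 and 3 less the median of promoters with as many CG sites. The share of all promoters above 1 moved too, from 5.09% to 14.7%, 11.3%, 0.623% and 5.81% under these settings in turn. The 1 separated member became 4 with equal sums and 0 when the SD was read as a population SD, and the 9 higher by more than the sum of both SDs became 21 with equal sums. In FVB/N the 19 members above 1 became 5 with equal medians, 6 with a pseudocount of 3 and 1 less the median of promoters with as many CG sites. There the share of all promoters above 1 went from 14.4% to 3.86%, 3.10% and 3.89% in turn. The 15 members higher by more than the sum of both SDs became 2 with equal medians. For separation and for the sum of both SDs, shares of all promoters under alternatives are not given here. Leaving out the 5 members whose windows overlap another promoter, an alternative chosen after seeing the data, gave medians of 0.52 and 0.73. Leaving out each replicate was not run, since only group values were used. No paired analysis was possible because the labels give the groups no shared replicate numbers and the results come from no test. Depth per library is unknown beyond the paper's averages, which were higher for DEHP than for control libraries, so the SDs are the only measure of precision.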

Other observations

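The CG sites of the members differ in whether they lie in repeats, as marked in the GRCm38.p6 assembly, and this split was made after the ratios were seen. In 21 members no CG site lay in a repeat, and 21 of these had a higher level in DEHP than in control in C57BL/6J, with a median ratio of 0.79. In the 32 members with some sites but under 50% in repeats, 19 were higher in C57BL/6J, with a median of 0.13. In the 5 members with 50% or more in repeats, which were Fpr-rs4, Tas2r114, Tas2r116, Tas2r137 and Tas2r144, 2 were higher, with a median of -0.24. Among other promoters with no more CG sites than all members but Tas1r1, the shares higher in DEHP in C57BL/6J were 62.6%, 46.6% and 56.0%. Less the median of promoters with as many CG sites, the medians of the members were 0.36, 0.03 and -0.86. Among the other 22422 promoters the same medians less that reference were 0.00, 0.00 and -0.16, without a test of the difference.

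In FVB/N the split was smaller. The 21 members without a CG site in a repeat had a median ratio of 1.0 with 20 higher in DEHP, the 32 had 0.58 with 29 higher, and the 5 had 0.44 with 4 higher. Less the median of promoters with as many CG sites these were 0.18, 0.02 and -0.06 in the members and 0.03, 0.00 and -0.20 in other promoters, so the contrast of the ends was about as wide in both. The shares higher in DEHP in FVB/N were 95.2%, 90.6% and 80% in the members. Among other promoters with no more CG sites than all members but Tas1r1 they were 84.2%, 77.4% and 76.6%. Fpr-rs4 has 11 of its 18 sites in repeats and Tas2r114 has 2 of 3. Of the 51-base sequences of these windows, 98.7% in Fpr-rs4 and 99.3% in Tas2r114 are unique in the genome.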
